A study of Mus musculus with 8 samples.

Results

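The genes of 37 histone lysine methyltransferases and demethylases were examined for H3K79me2, the dimethylated form of histone H3 lysine 79 that the enzyme DOT1L makes, in cultured mouse spermatogonial stem cells with and without a DOT1L inhibitor. The members were taken by name from the RefSeq annotation of GRCm38.p6, and all 37 were found among its 21887 protein-coding genes on the autosomes, X and Y. Of the 37, 22 encode proteins of the SET-domain methyltransferase families, called methyltransferase genes below, and 15 encode demethylases. For each gene, the bases of its span covered by peaks were counted in the control peak list and in the inhibitor peak list.

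Testes of mice aged 7 days gave the cells; the mice were of the B6.129S7-Gt(ROSA)26Sor/J strain, which carry a LacZ reporter in all tissues, so control and treated cells share that allele. Culture on SNL 76/7 feeders had lasted 2 months, in serum-free medium with GDNF at 10 ng/mL and FGF2 at 0.5 ng/mL. The treated group then received 2 µM EPZ5676, a DOT1L inhibitor, and the control group received vehicle, for 7 days. The vehicle is given as DMSO in the protocols and abbreviated as ethanol in the short sample descriptions, and the labels do not settle which was used. No step separating stem cells from feeder cells is described. There are 8 samples, 2 of H3K79me2 and 2 of input for each condition, but 1 peak list per condition. No value below therefore has a replicate error, no test between conditions or between gene groups was possible, and the read depth is unknown. Because the chromatin came from whole cultures, less mark per cell and fewer cells carrying it cannot be told apart.

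Methyltransferases of the SET-domain families transfer methyl groups to defined lysines of histone tails, and demethylases of the amine oxidase and Jumonji C families remove them. Methylation of H3K4 marks promoters and enhancers, that of H3K36 marks the bodies of transcribed genes, and that of H3K9, H3K27 and H4K20 accompanies repression and compact chromatin. H3K79me2 differs from these in that it is laid down by an enzyme without a SET domain, mainly over the first part of transcribed genes. In the male germ line, several of the enzymes are known for their part in DNA methylation, in meiosis and in packaging of the sperm genome.

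Nearly all of the genes carried H3K79me2 in control cells, and most had no peak after EPZ5676. Of the 37 genes, 36 had a control peak, where 52.7% of all protein-coding genes had one. After EPZ5676, 14 of the 37 had a peak, where 12.3% of all protein-coding genes had one. Of the 36 control-marked genes, 13 had an EPZ5676 peak, compared with 19.3% of all control-marked genes. Coverage under EPZ5676 reached 500 bp in 12 of the 37, where 7.77% of all protein-coding genes reached it. Peaks covered 991257 bases of the 37 spans in the control and 20429 bases after EPZ5676, a ratio of 48.5. EPZ5676 peaks still covered 2.01% of those control bases, close to the 1.76% over all protein-coding genes.

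The promoter regions of 4 genes stand for the patterns described below, and Kdm4c is shown with both of its annotated starts. Each runs from 250 bases before to 50 bases after the annotated start, read 5′ to 3′ on the strand of the gene, from RefSeq (GRCm38.p6). Capitals mark CG dinucleotides. Ehmt1 (chr2:24919560-24919859, minus strand) and Kdm4c had the longest EPZ5676 coverage of each kind among genes with a promoter entry (Nsd2, which has none, had the longest of all). Smyd2 (chr1:189922242-189922541, minus strand) and Kdm7a (chr6:39206724-39207023, minus strand) had the longest control coverage without an EPZ5676 peak among those with an entry. The 2 starts of Kdm4c (chr4:74242247-74242546, plus strand, and chr4:74251629-74251928, plus strand) differ in where the mark lies, and the inner start was added after its values were seen.
Ehmt1: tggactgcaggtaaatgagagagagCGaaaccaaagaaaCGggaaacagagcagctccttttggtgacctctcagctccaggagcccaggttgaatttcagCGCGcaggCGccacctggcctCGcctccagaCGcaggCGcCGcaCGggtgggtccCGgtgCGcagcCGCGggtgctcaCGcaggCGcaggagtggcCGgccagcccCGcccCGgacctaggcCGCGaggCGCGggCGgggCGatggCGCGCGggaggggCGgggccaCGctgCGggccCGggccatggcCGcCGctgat
Smyd2: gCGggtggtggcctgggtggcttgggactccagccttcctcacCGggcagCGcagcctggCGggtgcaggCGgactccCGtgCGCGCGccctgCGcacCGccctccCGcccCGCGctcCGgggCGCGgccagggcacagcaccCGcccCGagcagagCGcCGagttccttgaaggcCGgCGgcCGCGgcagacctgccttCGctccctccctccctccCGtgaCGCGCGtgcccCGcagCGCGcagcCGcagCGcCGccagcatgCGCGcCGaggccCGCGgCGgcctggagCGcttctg
Kdm7a: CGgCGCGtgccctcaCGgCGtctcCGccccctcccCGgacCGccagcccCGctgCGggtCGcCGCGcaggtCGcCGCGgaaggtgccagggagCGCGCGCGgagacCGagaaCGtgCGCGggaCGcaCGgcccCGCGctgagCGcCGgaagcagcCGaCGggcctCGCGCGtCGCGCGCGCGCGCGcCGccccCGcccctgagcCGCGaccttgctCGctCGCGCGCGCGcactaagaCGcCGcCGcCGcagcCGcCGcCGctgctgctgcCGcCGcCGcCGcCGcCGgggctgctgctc
Kdm4c, outermost start: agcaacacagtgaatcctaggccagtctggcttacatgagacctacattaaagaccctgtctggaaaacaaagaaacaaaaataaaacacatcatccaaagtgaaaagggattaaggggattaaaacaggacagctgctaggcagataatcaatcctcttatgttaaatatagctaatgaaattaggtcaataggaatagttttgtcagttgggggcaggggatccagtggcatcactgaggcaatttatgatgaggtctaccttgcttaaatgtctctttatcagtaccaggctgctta
Kdm4c, inner start: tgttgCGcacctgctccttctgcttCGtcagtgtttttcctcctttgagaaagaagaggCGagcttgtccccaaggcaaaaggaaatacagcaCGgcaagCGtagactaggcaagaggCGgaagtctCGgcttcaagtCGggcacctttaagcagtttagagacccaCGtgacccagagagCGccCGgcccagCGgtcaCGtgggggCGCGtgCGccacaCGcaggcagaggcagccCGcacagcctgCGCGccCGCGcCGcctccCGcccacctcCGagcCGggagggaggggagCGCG

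The sequences shown hold 34 CG dinucleotides at Ehmt1, 43 at Smyd2 and 65 at Kdm7a, and at Kdm4c 0 at the outermost start and 28 at the inner start. Promoter entries existed for 24 of the 37 genes, with 31 annotated starts in all. The median count of CG was 28 over these 31 sequences, compared with 21 over all starts of control-marked protein-coding genes and 4 over those of genes with no control peak. The letters GGGCGG, searched on both strands, were found in 24 of the 31, in 63.8% of starts of control-marked genes and in 23.7% of starts of genes with no control peak. The letters CCAAT, also searched on both strands, were found in 12 of the 31 and in 38.2% of all starts. The control list covered part of the 300-base window at 5 of the 31 starts, and the EPZ5676 list at none of them. The control list did so at 20.1% of starts of control-marked genes, above the 16.1% of the members, and at 11.4% of all protein-coding starts, while the EPZ5676 list did so at 13 of all 21263.

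In control cells the genes were covered over a larger part of their span than most genes of like length. The median over the 37 was 40.1% of the span, compared with 2.15% over all protein-coding genes and 32.6% over those with a control peak. Over 50% of the span was covered in 8 of the 37, where 15.9% of all protein-coding genes had as much. Among control-marked genes alone it was 8 of the 36 members and 3470 of all 11528, so the share was lower in the members. That share also varied with length, at 854 of 4077 control-marked genes of 40 kb or more and 2616 of 7451 shorter ones. In the control-marked members it was 3 of 13 long methyltransferase and 2 of 12 long demethylase genes. For the shorter ones it was 2 of 9 and 1 of 2. For each member, the other genes with a span within 20% of its length were taken as genes of similar length. Coverage was above the median of those genes in 35 of 37 members, and the exceptions were Kdm4d and Phf8. Part of this distance comes from unmarked genes, since the comparison sets include them. Set against control-marked genes of similar length alone, 27 of the 36 marked members were above the median, and the median member exceeded 65.2% of such genes.

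**Figure D1:**
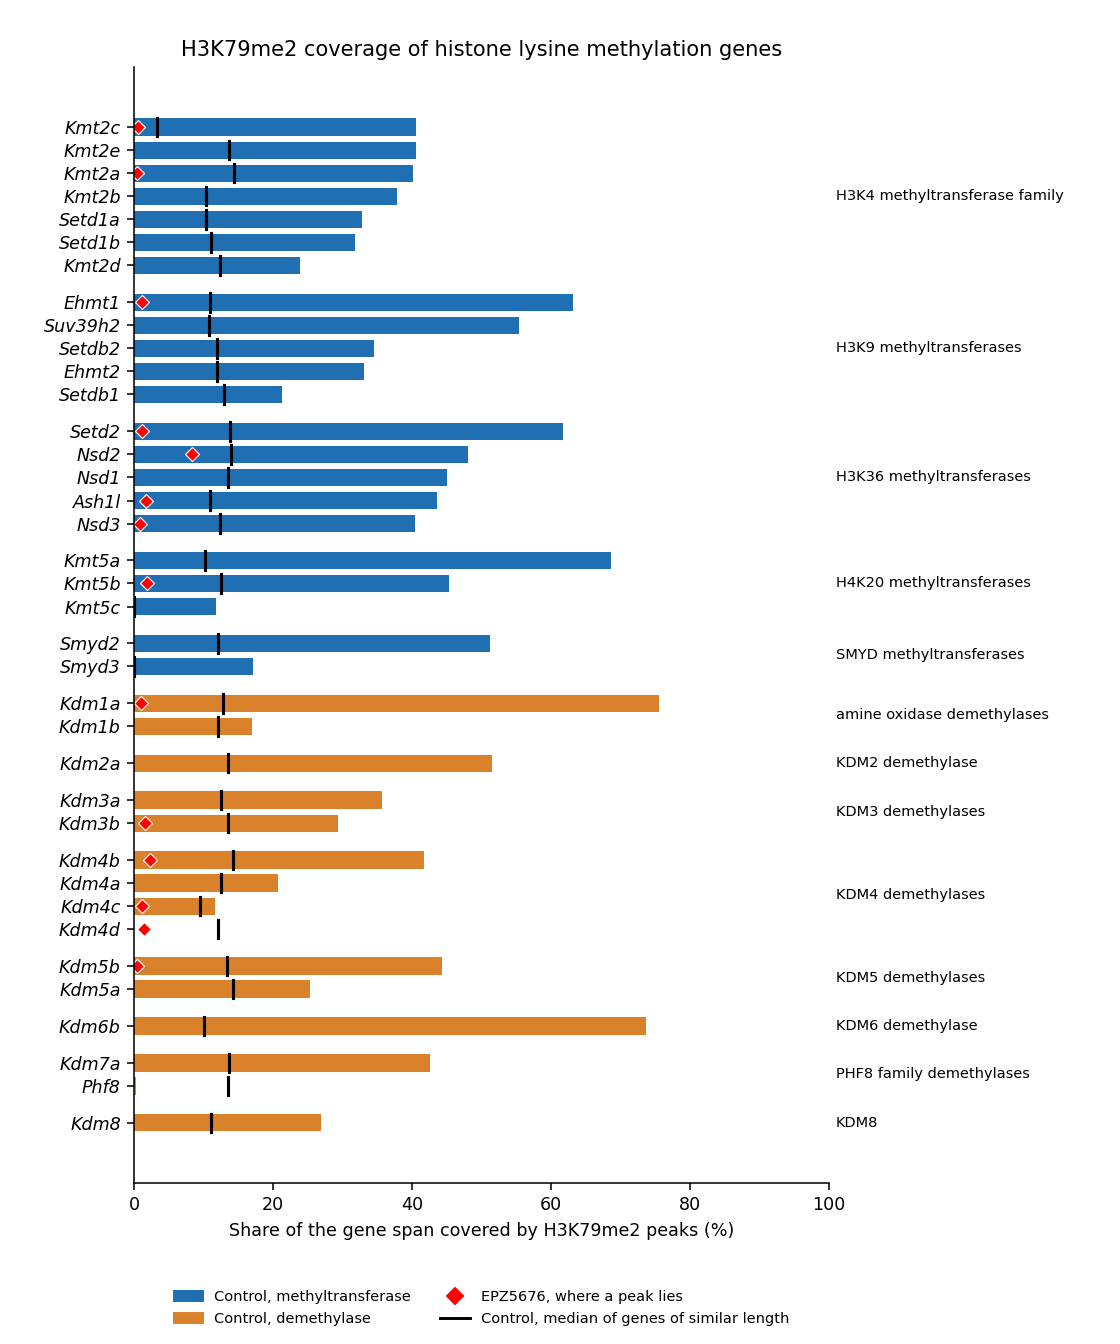
Share of each gene span covered by H3K79me2 peaks in the control (bars, %) for 22 methyltransferase and 15 demethylase genes grouped by role, with EPZ5676 coverage (red diamonds, where a peak lies) and the control median of genes of similar length (black ticks). All bars but those of Kdm4d and Phf8 pass their tick, and the highest EPZ5676 share is that of Nsd2 at 8.24%.

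**Figure D2:**
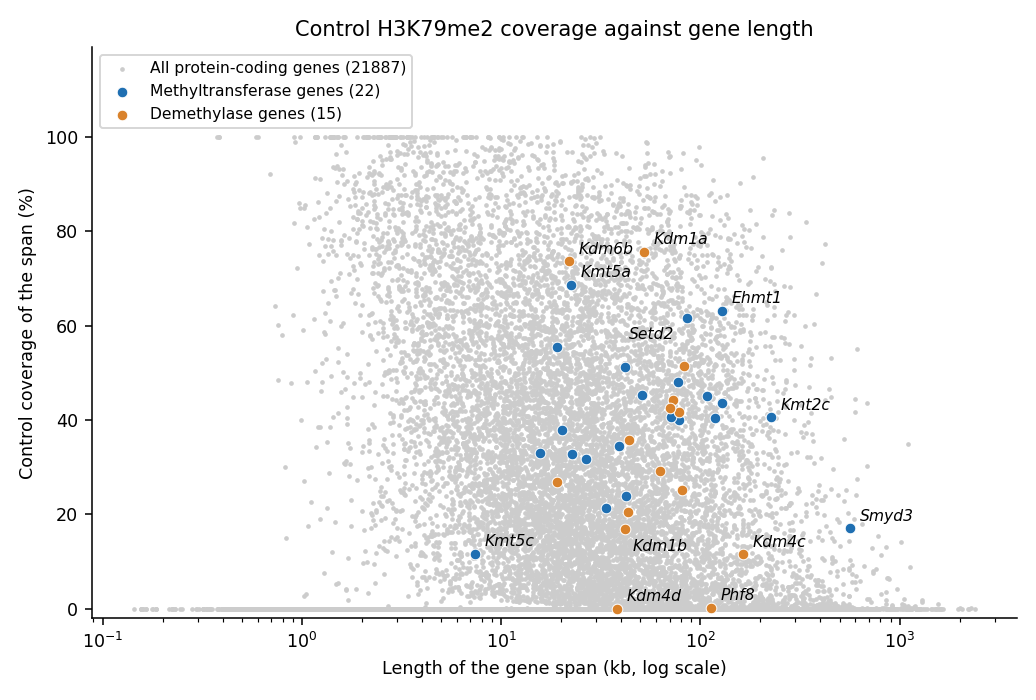
Control coverage of the span (%) against gene length (kb, log scale) for all 21887 protein-coding genes (grey) and the 37 members (blue and orange). The members run from 0% at Kdm4d to 75.6% at Kdm1a. Of the 36 marked members, 27 lie above the median of control-marked genes of similar length.

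Methyltransferase genes had more of their span covered in the control than demethylase genes, and similar shares of both had an EPZ5676 peak. All 22 methyltransferase genes had a control peak, with a median of 40.5% of the span covered and a range of 11.7 to 68.6%. Of the 15 demethylase genes, 14 had a control peak, with a median of 29.3% and a range of 0 to 75.6%, so the ranges overlap. The median methyltransferase gene exceeded 77.7% of genes of similar length and the median demethylase gene 66.3%. An EPZ5676 peak lay on 8 of 22 methyltransferase genes and on 6 of 15 demethylase genes. The retained share of control bases was 2.05% in methyltransferase genes and 1.89% in demethylase genes.

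Gene length moved with the EPZ5676 counts. All 8 methyltransferase genes with an EPZ5676 peak spanned 40 kb or more, and there were 13 genes of that length, while none of the 9 shorter ones had one. Among demethylase genes, 5 of 12 of 40 kb or more had an EPZ5676 peak, and 1 of 3 shorter ones, Kdm4d. Over all protein-coding genes, 31.5% of those of 40 kb or more and 5.05% of shorter ones had an EPZ5676 peak. Among control-marked genes alone the shares were 37.9% and 9.14%. Control-marked genes of similar length had an EPZ5676 peak in 28.0% of cases on average for the methyltransferases and in 30.5% for the demethylases. With genes of similar control-covered length (within 20%) the averages were 37.1% and 33.1%, against 36.4% of the methyltransferase and 35.7% of the control-marked demethylase genes. With all lengths together, the members' counts thus lay near those of genes with as much control coverage. By length, the latter averages were 52.1% for the 13 long methyltransferase genes, of which 8 had a peak, and 15.3% for the 9 shorter ones, of which none had. For the 12 long demethylase genes, of which 5 had a peak, the average was 35.5%.

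Among the genes of the H3K4 methyltransferase family, control coverage was even, and an EPZ5676 peak lay on 2 of 7. On average, 26.8% of control-marked genes of similar length and 31.0% of genes with similar control coverage had one. The 6 genes other than Kmt2d lay between 31.7% and 40.6% of the span. Kmt2c, whose product methylates H3K4 at enhancers (chromosome 5, 25271795 to 25498855), had 92123 control-covered bp and 1333 bp under EPZ5676. Its widest control peak ran 62924 bp and held all 4 of the EPZ5676 peaks. Kmt2a, the gene of the MLL1 protein that maintains Hox expression (chromosome 9, 44803355 to 44881352), had 31277 control-covered bp and 266 bp under EPZ5676. These were the pair with coverage under the inhibitor.

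The other H3K4 genes had control coverage alone. Kmt2e, whose product binds methylated H3K4, had 28886 control-covered bp and 0 bp under EPZ5676. Its widest control peak continued 12865 bp beyond the span. Kmt2d, the close relative of Kmt2c, had 10134 bp, or 23.9% of its span, in the control, with a highest fold enrichment of 6.52. That fold, the authors' ratio of peak signal to background, was the second highest of the 37 genes, although the covered share was the lowest of the H3K4 group. Kmt2b (7639 bp), Setd1a (7460 bp) and Setd1b (8442 bp), the last 2 of which encode the enzymes that deposit most H3K4 trimethylation at promoters, had similar control lengths.

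Among the H3K9 methyltransferase genes, Ehmt1 stood apart from its partner Ehmt2. The products of both form a heterodimer that makes H3K9me2. Ehmt1 (chromosome 2, 24790769 to 24919643) had 81344 bp in 26 peaks in the control, 63.1% of its span, and 1490 bp in 3 peaks after EPZ5676. Its highest control fold of 6.92 was the highest of the 37 genes. Ehmt2 (chromosome 17, 34898463 to 34914073) had 1 control peak of 5161 bp, 33.1% of its span, and 0 bp after EPZ5676. Their spans differ as well, at 128875 and 15611 bp.

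The remaining H3K9 genes had no EPZ5676 peak. Suv39h2, which encodes an H3K9 trimethylation enzyme abundant in testis, had 10629 bp covered in the control, 55.4% of its span, though 10160 bp of that also lies in the span of Dclre1c. Setdb2 had 13421 bp, all of it also within the span of Gm45935. Setdb1, whose product silences retroelements through H3K9me3 (chromosome 3, 95323525 to 95357202), had 7176 bp, 21.3% of its span. It was the least covered of the H3K9 group.

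Among the H3K36 methyltransferase genes, an EPZ5676 peak lay on 4 of 5, while on average 58.9% of genes with similar control coverage and 41.6% of control-marked genes of similar length had one. All 5 lay between 40.5% and 61.7% of the span in the control, and they were also long, with a median of 108544 bp. Nsd2 (chromosome 5, 33820676 to 33897966), whose product makes H3K36me2, had 37092 control-covered bp and 6370 bp in 7 peaks under EPZ5676. Of its control bases, 17.2% were still covered, the highest share of the 36 marked members in the lists as deposited, whereas control-marked genes of similar control coverage kept 1.92% together. Of those 601 genes, 99.0% had less EPZ5676 coverage. With peaks of a −log10 q of at least 2 alone, Nsd2 had 738 bp under EPZ5676 against 32768 control bp, a smaller share than the 933 against 21258 bp of Kmt5b. Over all protein-coding genes Nsd2 ranked 75 by EPZ5676 coverage, and 1645 bp of it lies in a part of the span shared with Gm52782 or Nelfa.

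The 7 EPZ5676 peaks of Nsd2 all fell inside its widest control peak, which ran 32768 bp. The widest of them ran 3105 bp (33824382 to 33827486), and it was the widest of the 37 EPZ5676 peaks in these genes. Ash1l, which encodes another H3K36me2 enzyme, had 56226 control-covered bp and 2111 bp under EPZ5676. Setd2, whose product is the H3K36me3 enzyme of transcribed gene bodies (chromosome 9, 110532500 to 110618633), had 53127 control-covered bp and 951 bp under EPZ5676. Nsd3 had 47768 bp and 1007 bp. Their retained shares of 3.75%, 1.79% and 2.11% lay well below that of Nsd2.

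Nsd1, needed for DNA methylation in the male germ line of the mouse, was the H3K36 gene without an EPZ5676 peak. It had 48860 bp in 11 control peaks, 45.01% of its span (chromosome 13, 55209782 to 55318325). Its control length was between those of Nsd3 and Setd2, both of which had EPZ5676 peaks. Of genes with similar control coverage, 59.96% had an EPZ5676 peak.

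Among the H4K20 and SMYD genes, an EPZ5676 peak lay on Kmt5b alone. Kmt5b, which encodes an enzyme of H4K20 di- and trimethylation (chromosome 19, 3767362 to 3818303), had 23056 bp in the control and 1 peak of 933 bp after EPZ5676. That peak had a deposited −log10 q of 2.37, while the median over the EPZ5676 peaks in these genes was 1.54. Kmt5c, which encodes the related enzyme (chromosome 7, 4740092 to 4747514), had 870 control-covered bp and 0 bp under EPZ5676. Kmt5b was covered over 45.3% of its span and Kmt5c over 11.7%, the lowest share of the methyltransferase genes.

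Kmt5a, whose product makes H4K20me1, had the highest covered share of the methyltransferase genes, 68.6% or 15362 bp, and no EPZ5676 peak. Smyd3 (chromosome 1, 178951960 to 179518053) had the longest control coverage of all 37 genes, 96579 bp in 28 peaks, and 0 bp after EPZ5676. Its span of 566094 bp is the longest of the group, so that length was 17.1% of it. Smyd2, whose product methylates p53 as well as histones, had 1 control peak of 21505 bp over 51.2% of its span, and 0 bp after EPZ5676. Of genes with control coverage like that of Smyd3, 61.6% had an EPZ5676 peak, and of those like Smyd2, 41.6%.

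The demethylase genes of the amine oxidase family differed from each other. Kdm1a, which encodes LSD1, an eraser of H3K4 mono- and dimethylation (chromosome 4, 136550533 to 136602787), had 39499 bp in the control. At 75.6% of its span it was the most fully covered of the 37 genes. After EPZ5676 it had 529 bp in 2 peaks. Kdm1b, the gene of LSD2, known in mouse for its part in oocyte imprinting, had 7075 bp in the control, 16.9% of its span, and 0 bp after EPZ5676.

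Of the KDM2 and KDM3 genes, Kdm3b had an EPZ5676 peak. Kdm2a, whose product binds CpG islands and removes H3K36me2, had 42474 bp in the control, 51.4% of its span, and 0 bp after EPZ5676. It was the longest-covered demethylase gene. Kdm3a, an H3K9 demethylase gene needed for sperm chromatin packaging in the mouse, had 15722 control-covered bp and 0 bp under EPZ5676. Its relative Kdm3b (chromosome 18, 34777008 to 34839370) had 18245 control-covered bp and 994 bp in 3 peaks under EPZ5676. The retained share at Kdm3b was 5.45%.

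The KDM4 genes, whose products remove H3K9me3 and, KDM4D aside, also H3K36me3, had EPZ5676 peaks at 3 of 4. Of the 3 with a control peak, 2 had one. On average, 31.4% of control-marked genes of similar length and 33.7% of genes with similar control coverage had one. Kdm4b had 32436 control-covered bp and 1776 bp under EPZ5676, of which a single peak made 1443 bp. Kdm4c (chromosome 4, 74242497 to 74405864) had 18853 control-covered bp and 1859 bp in 4 peaks under EPZ5676. It kept 9.86% of its control bases, the second highest share after Nsd2 in the lists as deposited, and 92.9% of genes with similar control coverage had less EPZ5676 coverage. With a −log10 q of at least 2, Kdm4c had 166 bp under EPZ5676 against 18238 control bp, a smaller share than at Kmt5b, Nsd2 and Setd2, and with peaks of at least 1000 bp it had 0 bp. Kdm4a had 8890 control-covered bp and 0 bp under EPZ5676.

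Kdm4d was the 1 gene of the 37 with no control peak, and it had an EPZ5676 peak. It encodes an H3K9me3 demethylase known from mouse spermatids (chromosome 9, 14462548 to 14500522). The EPZ5676 peak ran 535 bp (14466711 to 14467245), with a fold enrichment of 2.63 and a −log10 q of 1.53. It lay 33504 bp from the gene start, at 88.2% of the gene length. Of the 10359 genes with no control peak, 4.53% had an EPZ5676 peak.

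Of the remaining demethylase genes, Kdm5b had an EPZ5676 peak. Kdm5b, an H3K4 demethylase gene (chromosome 1, 134560178 to 134632878), had 32204 control-covered bp and 275 bp under EPZ5676. Its relative Kdm5a had 20352 bp in 10 control peaks and 0 bp after EPZ5676. Kdm6b, whose product removes H3K27me3 (chromosome 11, 69398508 to 69420367), had 16102 bp in the control, 73.7% of its span, and 0 bp after EPZ5676. Kdm6b thus exceeded 95.2% of genes of similar length in the control, near the 95.6% of Kdm1a.

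The PHF8 family genes differed in control coverage. Kdm7a, an eraser of H3K9me2 and H3K27me2, had 29843 bp in the control, 42.5% of its span, and 0 bp after EPZ5676. Phf8, its X-linked relative that removes H3K9me2 and H4K20me1 (chromosome X, 151520641 to 151633859), had 1 control peak of 318 bp, 0.281% of its span. It was absent from the control at the lowest −log10 p of the EPZ5676 list. The control list held 975 peaks on X and the EPZ5676 list 0, so no X-linked gene had an EPZ5676 peak. Kdm8, a Jumonji C gene, had 5107 control-covered bp and 0 bp under EPZ5676.

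**Figure D3:**
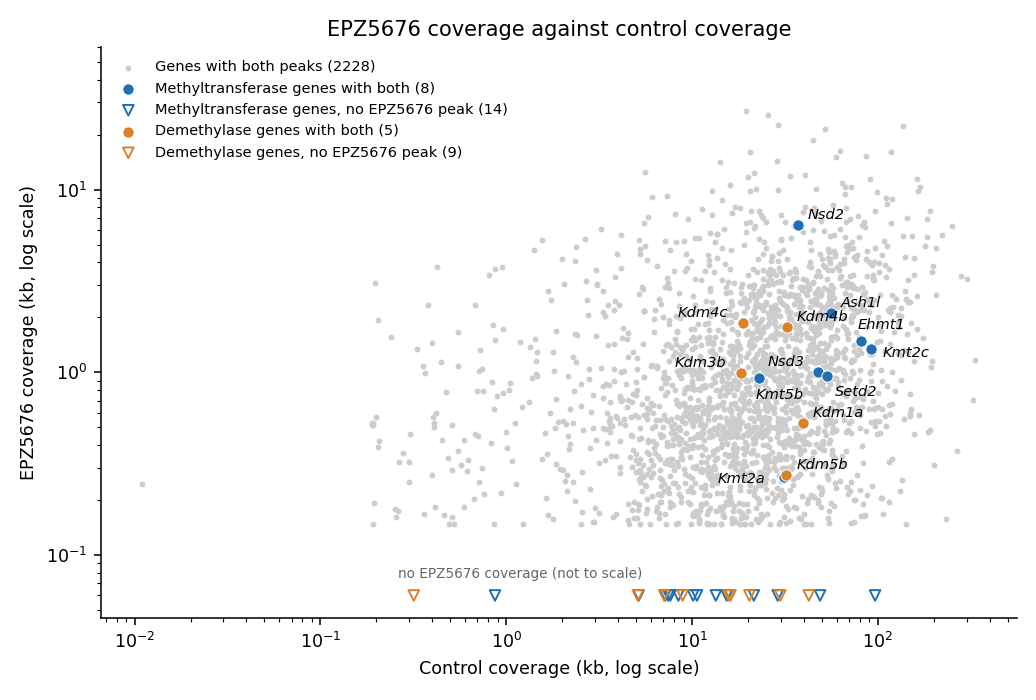
EPZ5676 coverage against control coverage (kb, log scales) for the 2228 genes with both peaks (grey) and the control-marked members, those without an EPZ5676 peak as open triangles at the foot, not to scale. Nsd2 is the highest member at 6370 bp, and 14 methyltransferase and 9 demethylase genes lie at the foot.

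Control coverage lay mainly in the first part of the genes. The strand and start were known for 24 of the 37 genes, 23 of them control-marked, through the promoter entries. In the first 5 kb after the outermost start, a median of 90.3% of bases was covered over these 24 genes, and 20 of them had over 50% covered. Over all control-marked genes with a known start the median was 79.3%, and 70.6% of them had over 50% covered. The first covered base lay a median of 430 bases after the start, compared with 390 over all control-marked genes with a known start. It lay within 1 kb of the start in 18 of the 23, a share not counted over all genes. In all 23, over 50% of the covered bases lay in the first 50% of the gene. The same held for 8227 of the 9335 control-marked genes with a known start, so most marked genes share this trait.

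Pooled coverage fell with distance from the start. The last covered base, in a control peak of any size, lay a median of 21998 bp from the start in the methyltransferase genes. In the control-marked demethylase genes the median was 25321 bp, the value of Kdm4a, where a separate peak of 1023 bp set it. As a share of the length from the start, the medians were 55.4% and 39.4%. Over the 14 methyltransferase genes, 85.8% of bases were covered at 0 to 5 kb, 73.2% at 5 to 10 kb, 57.8% at 10 to 20 kb and 41.2% at 20 to 50 kb. Over the 9 control-marked demethylase genes the shares were 65.3%, 59.5%, 52.6% and 24.9%. The shares below 10 kb include Kdm4c and Phf8, which had 0 bp covered there when measured from the outermost start. From its inner start, Kdm4c had 78.5% of the first 5 kb covered. The median gene had 93.2% of the first 5 kb covered among the methyltransferase genes and 86.2% among these 9. At 50 to 100 kb, the 5 methyltransferase genes with a known start that reach so far were 47.2% covered and the 5 such demethylase genes 0%. That 0% does not hold for demethylase genes in general, since Kdm2a and Kdm5a, whose starts were not used, have control peaks over 50 kb from either end of the span. All control-marked genes fell from 66.4% to 17.9% over the same distances. The shares at 50 to 100 kb rest on few genes, chiefly on Kmt2c, Ehmt1 and Setd2, whose coverage reached 131587, 124295 and 80062 bp from the start. By contrast Kmt2a reached 32452 bp, 41.6% of its length.

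**Figure D4:**
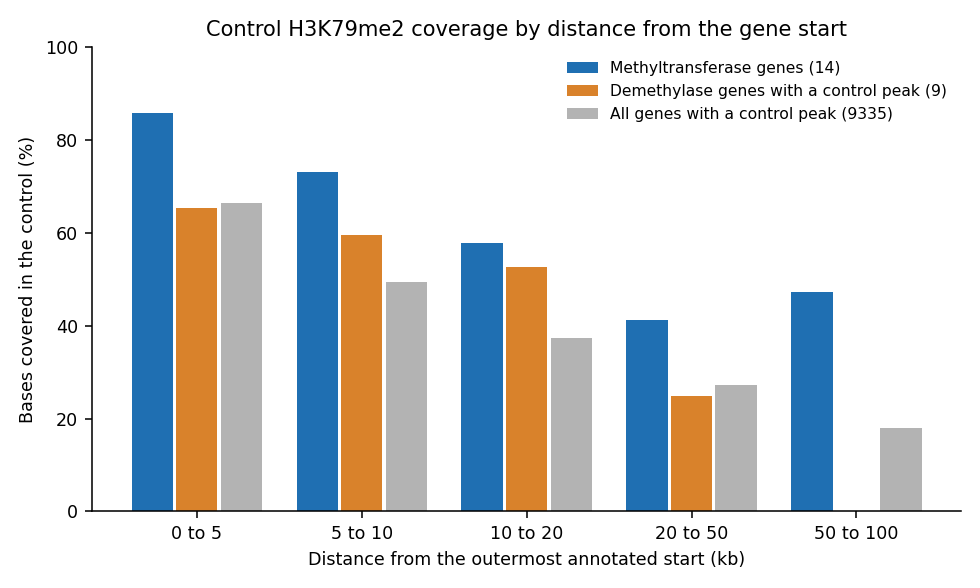
Bases covered by control peaks (%) by distance from the outermost annotated start (kb), pooled over 14 methyltransferase genes, 9 control-marked demethylase genes and 9335 control-marked genes. The methyltransferase bars fall from 85.8% to 41.2% before the last bin, in which the bar of the demethylase genes with a known start is at 0%. The demethylase bars below 10 kb include Kdm4c and Phf8, which had 0 bp covered there.

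Kdm4c and Phf8 were the control-marked genes with nothing covered in the first 5 kb. At Kdm4c, coverage began 10456 bases after the outermost start, whose promoter holds 0 CG, and 1074 bases after the inner start, whose promoter holds 28. The inner start lies 9382 bases downstream of the outermost one. Measured from the inner start, 78.5% of the first 5 kb was covered, within the range of the other genes. At Phf8 coverage began 10383 bases after its 1 annotated start. Kmt5c was partly covered, at 17.4% of the first 5 kb. At Kdm3a a start 23778 bases inside the gene, with 0 CG in its promoter, had no control base downstream of it, whereas 96.0% of the 5 kb after the start 231 bases inside the outermost one was covered.

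**Figure D5:**
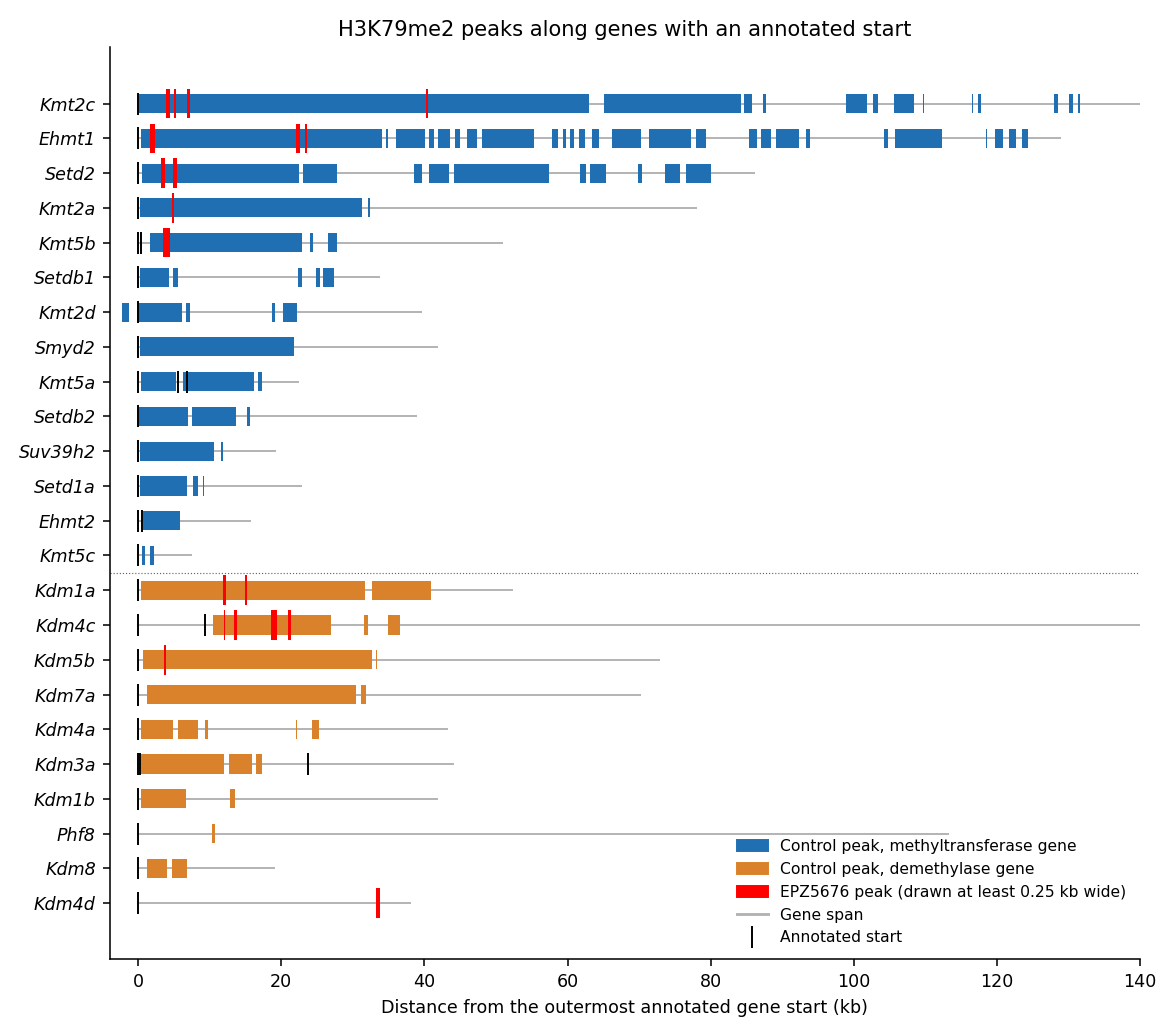
Control peaks (blue and orange) and EPZ5676 peaks (red, the shortest widened to be visible) along the 24 genes with a known start, by distance from the outermost start (kb, shown to 140 kb), with gene spans in grey and annotated starts as black ticks. Control domains begin close to a start in nearly all genes, at Kdm4c after the inner start, and EPZ5676 peaks lie inside the widest control peak of the gene except at Kdm4d, which has no control domain.

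The EPZ5676 peaks in these genes were short and lay within the control domains. The 14 genes held 37 EPZ5676 peaks with a median width of 402 bp, the same as the 402 bp over all 9182 EPZ5676 peaks, and 4 of the 37 were 1000 bp or wider. Of the 37, 36 lay entirely inside a control peak, and the exception was the peak at Kdm4d. Over all EPZ5676 peaks, in and outside genes, 55.8% overlapped a control peak, a looser measure than lying inside one. In bases, 83.7% of the EPZ5676 coverage of all control-marked protein-coding genes lay inside control peaks, and 100% of that in the control-marked members. In each of the 13 genes with both, all EPZ5676 peaks fell inside the widest control peak of the gene. In the 8 of these genes with a known start, the 18 peaks lay 1938 to 40366 bases from the start with a median of 9550, and 17 of them lay in the first 25% of the gene. Neither of these shares was counted over all genes. Over all control-marked genes with a known start, EPZ5676 peaks covered 1.82% of bases at 0 to 5 kb and 0.347% at 20 to 50 kb. In the control-marked members with a known start the values were 2.79% and 0.326%. The median fold of the 37 peaks, 2.79, was close to the 2.75 over all EPZ5676 peaks.

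Related enzyme genes and partner genes were also mostly marked in the control. Of 18 other lysine methylation enzyme genes, 17 had a control peak and 6 an EPZ5676 peak, with a median of 32.6% of the span covered in the control. On average, 63.5% of genes of similar length had a control peak, and 29.2% of genes with similar control coverage had an EPZ5676 peak. Kdm5d, on Y, had no peak in either list. Jmjd1c, of the KDM3 family, had 120055 control-covered bp and 2274 bp under EPZ5676, Prdm2 had 74023 and 4289 bp, Phf2, of the PHF8 family, had 26621 and 4047 bp, Prdm16 had 138860 and 552 bp, and Kdm2b had 31252 and 271 bp. Mecom ran the other way, with 5600 control-covered bp and 12400 bp under EPZ5676, longer than at any of the 37 members.

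Of 23 genes for partner subunits of these enzymes, all 23 had a control peak, with a median of 40.4% covered, and 6 had an EPZ5676 peak. The matched averages were 59.5% for a control peak by length and 23.0% for an EPZ5676 peak by control coverage. Among the partner genes, Atf7ip, the partner of SETDB1, had 49829 and 2271 bp. Ncoa6, of the KMT2C and KMT2D complexes, had 33676 and 1999 bp, and Rcor1, the CoREST partner of LSD1, had 52171 and 1226 bp. Cbx5, the gene of the H3K9me3 reader HP1α, had 36887 and 584 bp. Wdr5, a core subunit of the H3K4 complexes, had 6389 and 175 bp, and Rcor3 had 195 and 193 bp. Of 9 protein arginine methyltransferase genes, 8 had a control peak, with a median of 25.2% covered, Prmt8 had none, and Carm1 alone had an EPZ5676 peak (24877 and 260 bp). The matched averages for these were 61.7% by length and 16.5% by control coverage. The shares of control bases still covered were 2.43% for the other enzymes, 1.75% for the partners and 0.346% for the arginine methyltransferases.

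Marker genes of the cell types in the culture were checked in the same lists. All 10 genes of spermatogonia and germ cells had a control peak, with 23.2 to 96.6% of the span covered, and 1, Foxo1, had an EPZ5676 peak. On average, 65.8% of genes of similar length had a control peak, and 40.4% of genes with similar control coverage had an EPZ5676 peak. Of 10 fibroblast genes, for the feeder cells, 7 had a control peak with up to 26.96% covered, while Col1a2, Col3a1 and Vim had none in either list. An EPZ5676 peak lay on 4 of the fibroblast genes, Twist2, Prrx1, Fbn1 and Sparc. The same averages for the fibroblast genes were 62.7% and 12.1%. Of the control bases, 15.5% were still covered in the fibroblast list, 0.339% in the germ cell list and 2.01% in the 37 members. Of 6 Sertoli and Leydig genes, 2 had a control peak and none an EPZ5676 peak, and Sox9, Star, Cyp17a1 and Hsd3b1 had no peak in either list. For these the averages were 50.7% and 11.7%. The part of feeder cells in the EPZ5676 peaks of the 37 genes was not tested.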

How the data were processed

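H3K79me2 chromatin immunoprecipitation and sequencing was done per the labels. The deposited files are 2 peak lists of 9 columns without a header, 1 recorded under replicate 1 of each H3K79me2 group. The tools named in the submitters' processing notes are Trimmomatic, deepTools and bcl2fastq (2.20.0.422), and the build is mm10, another name of GRCm38. How reads were aligned and peaks called, with or without the inputs and pooling, was not given in the sources used here. The score the authors deposited lies within 1 of 10 times the −log10 q-value. The deposited fold enrichment is a ratio of peak signal to background. The deposited −log10 p and −log10 q values have lowest values of 2.36 and 1.05 in the control list and 4.03 and 1.04 in the EPZ5676 list, and served to describe or filter peaks.

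Bases of each RefSeq gene span (GRCm38.p6) covered by peaks were counted in Python 3.11.15 with pandas 2.3.3 and NumPy 2.4.6, and the counting was tested on simulated intervals. A gene was marked when at least 1 bp was covered, and a base was assigned to every gene whose span holds it; 11 of the 37 spans overlap another protein-coding gene. Starts and strands came from the RefSeq promoter table, and the outermost start was used. The table has no entry for Kmt2b, Kmt2e, Setd1b, Nsd1, Nsd2, Nsd3, Ash1l, Smyd3, Kdm2a, Kdm3b, Kdm4b, Kdm5a and Kdm6b. The depth of the samples is unknown. No test was made, since each condition has 1 list and genes are not replicates.

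The members, the gene lists and the choice of alternatives were made with earlier results of these data known. All 37 genes are accounted for; values are given in full for the 3 longest- and 3 shortest-covered genes of each kind, for every gene with an EPZ5676 peak or no control peak, and for genes sharing a role with them. Promoters shown follow a rule on coverage, with the next gene taken where the first has no entry. Alternatives were a stricter q-value, the control list at the lowest p of the EPZ5676 list, a minimum peak width, 500 covered bases, genes free of overlap, autosomes, a narrower length band and a shorter start window.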

Additional observations from a re-analysis of the deposited data

How the results depend on the processing

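No paired analysis was possible because each condition has 1 peak list, and for the same reason no replicate could be left out. A control peak remained on 34 to 35 of the 37 members with stricter or wider peaks or 500 covered bases. Under the same settings, 44.7 to 50.6% of all protein-coding genes had one. With peaks of a −log10 q of at least 2, an EPZ5676 peak lay on 5 members (3 methyltransferase and 2 demethylase genes: Kmt5b, Nsd2, Setd2, Kdm1a and Kdm4c), where 1.91% of all protein-coding genes had one. With peaks of at least 1000 bp it lay on 3 members (2 and 1: Nsd2, Ash1l and Kdm4b), where 2.42% of all genes had one. Kdm4d was in neither set. The order of the retained shares, led by Nsd2 and Kdm4c in the deposited lists, was led by Kmt5b at the stricter q. The share of control bases still covered was 0.273% at the stricter q, 0.780% with the wide peaks, 2.35% with the control list at the lowest p of the EPZ5676 list and 1.52% in members free of overlap. The median control coverage of methyltransferase genes was 39.9%, 39.7%, 38.7% and 40.3% under those 4 settings, and that of demethylase genes 28.9%, 28.9%, 26.2% and 28.0%, and 32.5% on autosomes. The median share of similar-length genes with lower coverage was 78.0%, 77.6% and 80.6% for methyltransferases under the first 3 and 76.9% with lengths within 10%. For demethylases it was 68.3%, 68.1%, 70.6% and 66.1%, then 70.2% on autosomes and 65.4% within 10%. In a 2 kb window the median start coverage was 78.0%. With unknown depth, a gene without an EPZ5676 peak may carry the mark below what these lists detect.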
